A study of Homo sapiens with 2 samples.

Results

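The miR-548 family was examined in A549 cells, a human lung adenocarcinoma line, through the 28 listed mature entries whose name begins with miR-548 and a letter, out of 859 listed mature miRNAs and 5475 small RNA features. 1 library was made from cells kept for 24 h under normoxia (20% oxygen) and 1 from cells kept for 24 h under hypoxia (1.2% oxygen). Both came from the same line in the same medium, with no transfection or genetic change named. With 1 library per condition there is no replicate check and no test of oxygen, and all intervals below are exact 95% intervals that cover counting error only.

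miR-548 is a primate-specific family. Its hairpins derive from Made1, a short DNA transposon whose copies are nearly palindromic, so that a transcribed copy folds back into a hairpin. Because the copies lie scattered over the genome and descend from one element, members resemble one another and several are encoded by more than one hairpin. A miRNA recognises its target mRNAs mainly through its seed, bases 2 to 8 from the 5′-end, so members that share a seed are expected to share many predicted targets.

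The listed members did not carry a single family seed. The 28 entries held 27 distinct mature sequences, and these fell into 17 seeds, of which 13 belonged to 1 member each and 4 to several. RefSeq (GRCh38.p14) gave a mature sequence for 19 of the 28 entries. A choice of these is shown 5′ to 3′, with the seed in capitals. The first 4 come from the 5′ side of their hairpin and share the seed AAAGUAA, the largest group by number of members with 5, and miR-548k follows because its seed departs from it only at the last base.
miR-548w: aAAAGUAAcugcgguuuuugccu
miR-548y: aAAAGUAAucacuguuuuugcc
miR-548aq-5p: gAAAGUAAuugcuguuuuugcc
miR-548as-5p: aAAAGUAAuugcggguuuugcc
miR-548k: aAAAGUACuugcggauuuugcu

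The next 5 come from the 3′ side of the hairpin and have seeds at slightly different places along nearly the same bases. In miR-548f the run of A starts at the first base, whereas miR-548ar-3p has a shorter run of A than miR-548aj-3p. miR-548aj-3p, miR-548x-3p and miR-548ae read AAAAACU, while miR-548ar-3p and miR-548f, together with miR-548e and miR-548a-3p, read AAAACUG.
miR-548aj-3p: uAAAAACUgcaauuacuuuua
miR-548x-3p: uAAAAACUgcaauuacuuuc
miR-548ae: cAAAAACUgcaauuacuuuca
miR-548ar-3p: uAAAACUGcaguuauuuuugc
miR-548f: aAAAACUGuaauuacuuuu

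The last pair, also from the 3′ side, begins further upstream and so has seeds that no other listed miRNA has, although the family bases follow within the sequence.
miR-548s: aUGGCCAAaacugcaguuauuuu
miR-548p: uAGCAAAAacugcaguuacuuu

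A motif taken from the seed of the 5′ members and its reverse complement, as the arms of any paired hairpin can hold them, were then counted. AAAGUAA occurred in 7 of the 11 members from the 5′ side and in 0 of the 16 from the 3′ side, whereas its reverse complement UUACUUU occurred in 11 of the 16 members from the 3′ side and in 0 of the 11 from the 5′ side. Among the other mature miRNAs with a usable sequence, AAAGUAA was found in 0 of 830 and UUACUUU in 2 of 830, which were miR-126-5p and miR-340-3p. Only the mature strand was searched. The distinct members were 19 to 25 bases long, and 16 of them had 22 bases. Their median content of A and U was 63.6%, against 50% in the other mature miRNAs. U was the first base in 4 of 27 members (14.8%), against 39.4% of the other mature miRNAs, and A was the first base in 13 (48.1%, against 28.9%).

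Over their full length, distinct members were nevertheless not so alike that single errors would exchange them. Over the 351 pairs of distinct sequences, the edit distance (how many bases must be exchanged, added or removed to pass from one to the other) ranged from 2 to 17, with a median of 10. Only identical sequences were closer. miR-548z and miR-548h-3p have the same mature sequence and were listed with 4 and 3 counts in normoxia and 8 and 7 in hypoxia. miR-548ai has the mature sequence of miR-570-5p, a relative of the family outside its name, and both were listed with 2 counts in normoxia and 3 in hypoxia. The entries of each pair cannot be taken as separate measurements, and miR-548h-3p was left out of all sums. A further uncertainty touches miR-548aa and miR-548d-5p, since 19 consecutive bases of miR-548aa are the reverse complement of miR-548d-5p. Their hairpins MIR548AA2 and MIR548D2 are annotated on the same bases of chromosome 17 (GRCh38, 67471489 to 67471585) on opposite strands, and it is not stated whether strand was used in counting. Reverse-complement runs of 15 bases also link miR-548aa to miR-548q and miR-548n. Runs of that length link miR-548ai to miR-548aj-3p, miR-548x-3p and miR-548ae.

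In GENCODE version 29, the mature sequences of the members matched 40 hairpins of MIR548 genes. Of these, 22 lay within an intron of a protein-coding gene on the same strand, 7 within such an intron on the opposite strand, 2 overlapped a lincRNA gene and 9 overlapped no gene of the classes considered. A single hairpin held the mature sequence of 16 members, 2 hairpins that of 8, 3 hairpins that of 2 (miR-548aa and miR-548a-3p) and 5 hairpins that of 1 (miR-548f), where the second hairpin of miR-548ai is MIR570. For members with several hairpins, the count cannot be divided between loci. Among those with 1, MIR548E lies on chromosome 10 (110988926 to 110989013) in an intron of SHOC2, which encodes a scaffold of RAS-MAPK signalling. MIR548S lies on chromosome 2 (11767444 to 11767525) in an intron of LPIN1, which encodes the phosphatidate phosphatase lipin-1, and MIR548K on chromosome 11 (70283955 to 70284070) in an intron of PPFIA1, which encodes liprin-alpha-1. All 3 run in the direction of their host gene.

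The family was a very small part of the A549 miRNAs. The table held 6449337 counts in normoxia and 13115226 in hypoxia, of which 4514818 and 8600160 fell on mature miRNAs. miR-548 members received 213 counts in normoxia, or 0.00472% of mature counts (interval 0.00411% to 0.00540%), and 399 in hypoxia, or 0.00464% (0.00420% to 0.00512%). This corresponded to 47.2 CPM (the count scaled to a library of 1000000 mature counts) in normoxia and 46.4 CPM in hypoxia for all members together. The library labels were checked with miR-210, a miRNA induced by hypoxia-inducible factor, which had 4307 counts in normoxia and 22849 in hypoxia. Of the markers considered, the 5 epithelial miRNAs (miR-200a, miR-200b, miR-200c, miR-141 and miR-205) summed to 1076 and 1274 CPM, and miR-126-3p, the endothelial marker, reached 179 and 190 CPM. The liver marker miR-122-5p had 4 counts in each library. Markers of blood cells (3 listed) summed to 19.7 and 23.1 CPM, of muscle (2 listed) to 0 and 2.44 CPM, and of neurons (3 listed, most counts on miR-128) to 292 and 388 CPM.

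miR-548aa and miR-548v had the most counts of the family. Normoxia gave miR-548aa 50 counts (11.1 CPM, interval 8.22 to 14.6) and hypoxia 98 counts (11.4 CPM, 9.25 to 13.9), which placed it at rank 307 and rank 312 of the mature miRNAs. miR-548v followed with 38 counts (8.42 CPM, 5.96 to 11.6) and 70 counts (8.14 CPM, 6.35 to 10.3). The intervals of these 2 overlapped in both libraries, so their order is not settled. miR-548e came next with 19 counts (4.21 CPM, 2.53 to 6.57) and 38 counts (4.42 CPM, 3.13 to 6.07), and its interval lay apart from that of miR-548v in hypoxia but not in normoxia. The same 3 members led in both libraries and together took 50.2% of family counts in normoxia (43.3% to 57.1%) and 51.6% in hypoxia (46.6% to 56.6%).

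The interval of miR-548e overlapped those of miR-548s, miR-548a-3p and miR-548k in both libraries, so neither its place nor the order below it could be fixed. miR-548s had 9 counts in normoxia and 28 in hypoxia, miR-548a-3p 12 and 22, and miR-548k 13 and 20. miR-548aj-3p had 11 and 10 counts, miR-548p 5 and 16, miR-548w 10 and 10, and miR-548y 6 and 14. The intervals of these 7 members overlapped one another in normoxia, and in hypoxia only miR-548s lay apart, above miR-548aj-3p and miR-548w. The other 17 distinct members had 3 to 18 counts over both libraries, at most 8 in normoxia and 10 in hypoxia, and summed to 40 and 73 counts. Of these, 4 had no count in normoxia (miR-548ao-5p, miR-548ae, miR-548at-3p and miR-548f) and 2 had none in hypoxia (miR-548n and miR-548as-5p). For a count of 0 the one-sided 95% limit is 3 counts, or 0.664 CPM under normoxia and 0.349 CPM under hypoxia. The upper end of the exact interval is 0.817 and 0.429 CPM, so absence cannot be read from such a count. Since every listed feature has at least 3 counts over both libraries, a miR-548 miRNA that is not listed may have had fewer.

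**Figure D1:**
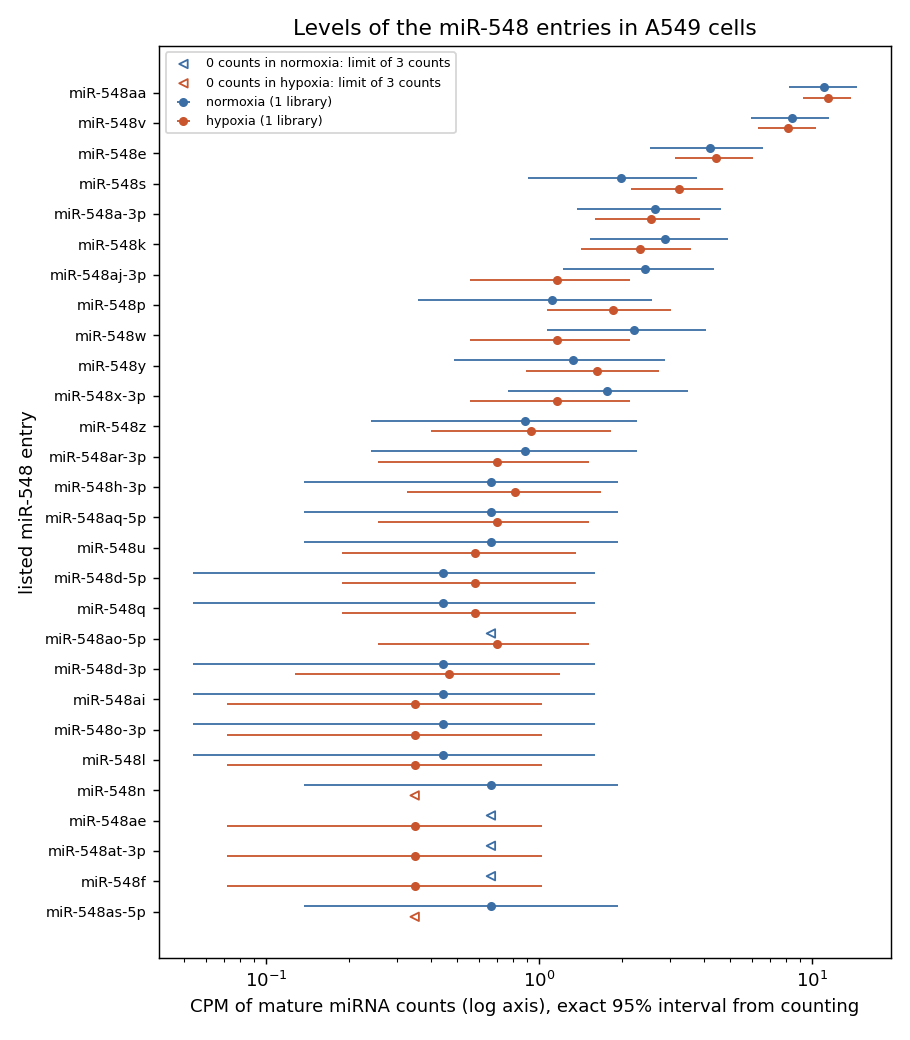
Level of each of the 28 listed miR-548 entries in CPM on a log axis, with exact 95% intervals from counting, in normoxia (blue) and hypoxia (orange), 1 library each. Open triangles mark the one-sided 95% limit of 3 counts for a count of 0. miR-548aa, miR-548v and miR-548e have the highest values in both libraries, and the interval of miR-548e overlaps those of miR-548s, miR-548a-3p and miR-548k.

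By strand of origin, members from the 3′ side of the hairpin held most of the counts. In normoxia they had 167 of 213 counts (78.4%, interval 72.3% to 83.7%) and in hypoxia 327 of 399 (81.95%, 77.8% to 85.6%), from 16 of the 27 distinct sequences. miR-548aa, miR-548v and miR-548e, all from the 3′ side, by themselves took 50.2% of family counts in normoxia and 51.6% in hypoxia. The size of the 3′ share therefore depends largely on these 3, which carry no arm in their name. For miR-548aa it is not stated whether strand was used in counting. When only members with an arm in their name were used, the 5p share was 8 of 47 counts in normoxia (17.02%, 7.65% to 30.8%) and 17 of 75 in hypoxia (22.7%, 13.8% to 33.8%). miR-548d was the only hairpin name with both arms listed, with 2 counts for the 5p arm and 2 for the 3p arm in normoxia and 5 and 4 in hypoxia. These counts are too few to tell its arms apart or to call them equal. For the other members, miR-548aa and miR-548v included, no second arm is listed under the hairpin name, so arms could not be compared.

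By seed, miR-548aa and miR-548v, each with a seed (bases 2 to 8) of its own, had higher counts than any group of members that share one. With seeds cut to bases 2 to 7 this no longer held for miR-548v in normoxia, where the 7 members with AAAGUA had 39 counts against its 38, while in hypoxia they had 58 against its 70. By those bases miR-548aa shared AAAACC with miR-548at-3p, and this pair had 50 counts in normoxia and 101 in hypoxia. The seed of miR-548aa, held by no other listed miRNA, took 23.5% of family counts under normoxia (interval 17.95% to 29.8%) and 24.6% under hypoxia (20.4% to 29.1%). miR-548v took 17.8% (12.95% to 23.7%) and 17.5% (13.9% to 21.6%). The 4 members with AAAACUG took 16.4% (11.7% to 22.1%) and 17.3% (13.7% to 21.4%), and 57 of the 104 counts behind this seed came from miR-548e. The 5 members with AAAGUAA took 11.3% (7.35% to 16.3%) and 8.77% (6.19% to 11.99%), and the 3 members with AAAAACU took 8.92% (5.46% to 13.6%) and 5.76% (3.69% to 8.52%). The intervals of miR-548aa, miR-548v and AAAACUG overlapped within each library, so their order is not settled, and for each seed the intervals of both libraries overlapped. Outside the family, only AAGGUAA, the seed of miR-548ai, was found in another listed miRNA, which was miR-570-5p.

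**Figure D2:**
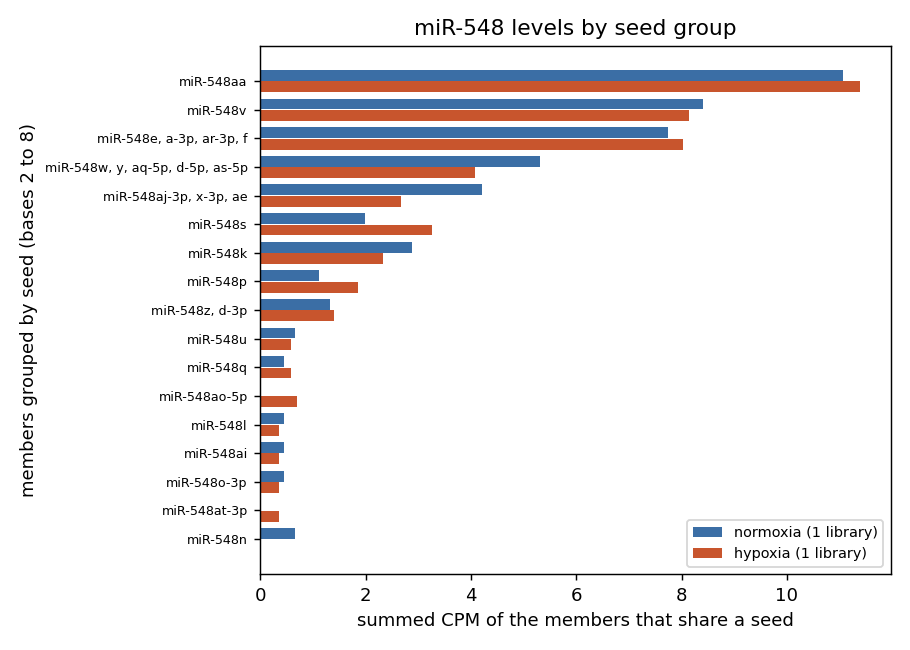
Summed CPM (bars from 0) of the distinct miR-548 members grouped by shared seed, in normoxia (blue) and hypoxia (orange), 1 library each. miR-548aa alone reaches 11.1 and 11.4 CPM, above the 4 members that share AAAACUG (7.75 and 8.02 CPM) and the 5 that share AAAGUAA (5.32 and 4.07 CPM).

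By number of counts, the family resembled the miRNAs named late. The median member had 9 counts over both libraries, as had the median of the 227 other miRNAs numbered miR-3000 and above, against 118.5 for the remaining 604 mature miRNAs. At least 20 counts were reached by 10 of the 27 members (37%), by 30.4% of the late-numbered miRNAs and by 73.2% of the remaining miRNAs. The highest member had 148 counts, while the highest late-numbered miRNA had 14335. A mean log2 CPM above 3 was reached by 2 members (7.41%), miR-548aa at 3.53 and miR-548v at 3.10, against 10.6% of the late-numbered miRNAs and 51.8% of the remaining miRNAs. The nearest members under that threshold were miR-548e at 2.21 and miR-548a-3p at 1.54.

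The question of the design was whether small RNAs differ between normoxia and hypoxia. Log2 ratios of hypoxia over normoxia were taken after scaling by the trimmed mean of M-values (TMM), with a prior count of 2 that draws the ratios of low counts towards 0. The summed family showed a log2 ratio of -0.14, with an interval of -0.38 to 0.11 that holds 0, which is a range of 0.767-fold to 1.08-fold. Without miR-548aa and miR-548v it was -0.16 (-0.48 to 0.17), and without the 5 members with the most counts -0.29 (-0.69 to 0.11). Members from the 3′ side were at -0.07 (-0.35 to 0.20) and those from the 5′ side at -0.39 (-0.95 to 0.17). A difference in the summed family was therefore not detectable at this depth, whereas miR-210 had a log2 ratio of 1.36 (1.32 to 1.41) in the same libraries.

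Single members gave the same picture with wider intervals. Members were called by size when their log2 ratio reached 0.9 or -0.9 and their mean log2 CPM exceeded 3. By this rule 0 of the 2 members past the expression filter were higher, against a background of 2.36% of the 339 mature miRNAs past it, and 0 were lower, against 4.42%. miR-548aa had a log2 ratio of -0.07 (-0.58 to 0.45) and miR-548v of -0.16 (-0.75 to 0.45). Both intervals lie inside the rule of size, so a change of that size in these libraries would have exceeded their counting error. For miR-548e the ratio was -0.04 (-0.88 to 0.83).

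The members with 20 to 37 counts spread further, on both sides of 0. miR-548s (0.53, -0.53 to 1.86) and miR-548p (0.52, -0.88 to 2.44) had the highest ratios among members with at least 20 counts. miR-548aj-3p (-0.999, -2.58 to 0.19) and miR-548w (-0.88, -2.47 to 0.38) had the lowest, with nearly equal raw counts in both libraries although the hypoxia library is the deeper. miR-548k was at -0.38 (-1.502 to 0.71), miR-548a-3p at -0.15 (-1.25 to 0.98) and miR-548y at 0.15 (-1.29 to 1.85). None of these intervals excluded 0, so no direction can be read for any of them.

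Over all distinct members the median log2 ratio was -0.07, against -0.02 over all mature miRNAs, and 9 members lay above 0 and 18 below, against 422 and 437 of all mature miRNAs. This split depends on the scaling, since with libraries scaled by total counts 14 members lay above 0 and 13 below, with a median of 0.04, against 517 and 342 of all mature miRNAs, with a median of 0.09. The interval excluded 0 for 0 of the 27 members, against 30.7% of all mature miRNAs, whose median was 43 counts against 9 for the members. Among the 10 with at least 20 counts it also excluded 0 for none. Of the other mature miRNAs with totals in the same range (20 to 148 over both libraries), it excluded 0 for 38 (18.4%). Counts were not matched within that range, and most of the 10 lay at its low end, from 20 to 37 counts. The median log2 ratio of these 10 was -0.11, with 7 below 0, against a median of 0.16 for the others in that range. Since each of the 10 intervals holds 0, this is a description of these libraries. Of the relatives outside the name, miR-570-3p went from 4 counts in normoxia to 15 in hypoxia, with a log2 ratio of 0.69 (-0.79 to 2.91), and miR-603 was not listed.

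**Figure D3:**
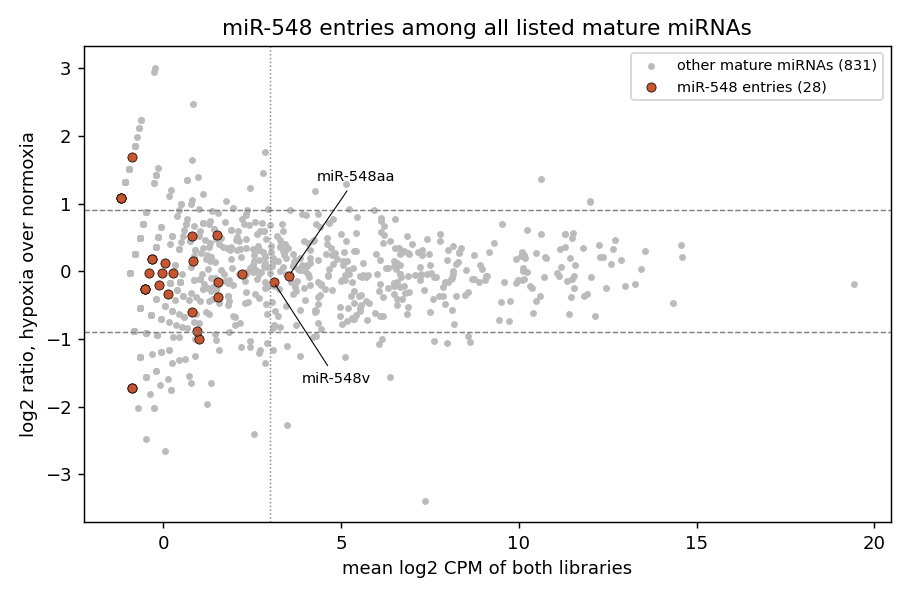
Log2 ratio of hypoxia over normoxia against mean log2 CPM for the 831 other mature miRNAs (grey) and the 28 miR-548 entries (orange), with dashed lines at -0.9 and 0.9 and a dotted line at the expression filter of 3. Only miR-548aa and miR-548v lie past the filter, both between the dashed lines, and every miR-548 entry beyond the dashed lines lies under the filter.

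**Figure D4:**
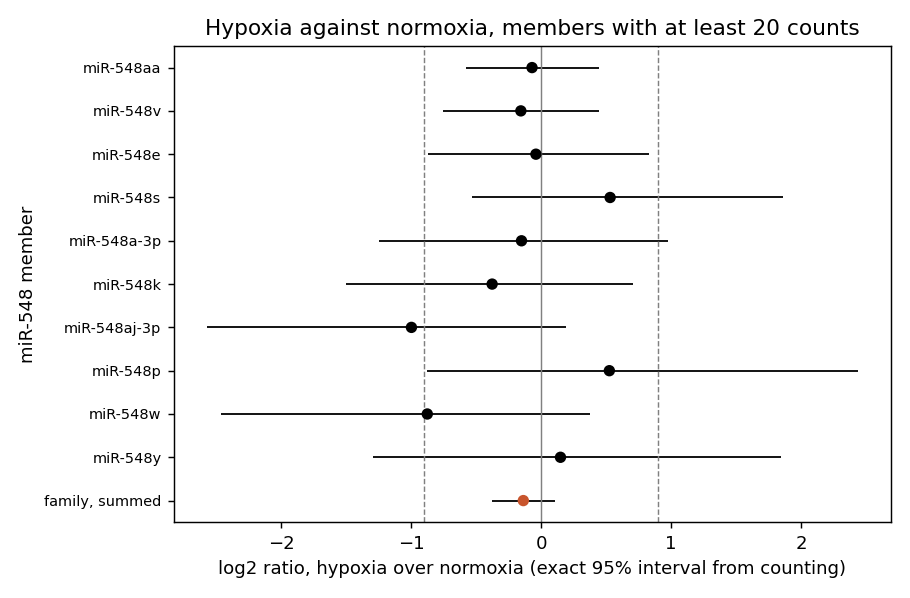
Log2 ratio of hypoxia over normoxia (points) with exact 95% intervals from counting (lines) for the 10 members with at least 20 counts and for the summed family (orange). Dashed lines mark -0.9 and 0.9. Every interval crosses 0, and only those of miR-548aa, miR-548v, miR-548e and the summed family stay within the dashed lines.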

How the data were processed

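Small RNA libraries of A549 cells were prepared by ligation and PCR for the SOLiD platform, without molecular identifiers, so reads are not independent molecules. The authors deposited raw counts per feature, not normalized, and per the labels the build is hg19. For SOLiD data the methods name LifeScope and miRBase version 18, without naming this experiment. The sources used here do not say how reads that match several entries were counted.

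The members and lists were chosen with earlier results of these data known. Of the listed mature sequences with a RefSeq entry of the same name, 677 of 681 carried 1 extra base at the 5′-end, so seeds were read from the mature sequence without it. Entries with equal mature sequence were counted once, by the entry with the highest total. The arm of each member was taken from its place in the matching GENCODE version 29 hairpin, a choice made after the data were seen, and from its name. CPM are relative to mature counts. Ratios used TMM in edgeR 4.0.16 (R 4.3.3) with a prior count of 2, and intervals are exact Clopper-Pearson or conditional binomial intervals (scipy 1.17.1). The calculation was tested on simulated data. Named were the 10 highest members, those past the rule of size, the extreme ratios among members with at least 20 counts, both-arm hairpins, equal or nearly equal sequences, members of the largest seed group, members next to the filter, miR-210, miR-570 and miR-603. Other seeds and members with a count of 0 were named after their values were seen. Alternatives were other scalings (total counts, DESeq2 1.42.0 size factors, totals without the 10 most abundant miRNAs), a prior count of 0.5, thinning, filters, denominators and the treatment of equal sequences.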

Additional observations from a re-analysis of the deposited data

Results flagged for a closer look

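Beside the mature entries, 13 hairpin entries named for MIR548 genes in GENCODE are listed, with 35 counts in normoxia and 55 in hypoxia in all, and these were used in no comparison. They were singled out where a library gave more than 3 counts, the one-sided 95% limit for a count of 0, without a control library. MIR548H3 received 19 counts under normoxia and 23 under hypoxia, with a log2 ratio of -0.70 and a counting interval of -1.71 to 0.19. MIR548E, MIR548J and MIR548AE2 had 4 counts each in hypoxia and 0 in normoxia. The 12 entries other than MIR548H3 had 3 to 6 counts over both libraries.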

How the results depend on the processing

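No paired analysis was possible because only 1 library per condition exists, and no library could be left out. Scaling by total counts raised log2 ratios by 0.114 before the prior count, and by less at low counts with it, which took the summed family from -0.14 to -0.02 and the median member from -0.07 to 0.04. Over all scalings, prior counts, thinning and treatments of equal sequences the summed family stayed between -0.22 and -0.02, within its counting interval. Without a filter on low counts, 4 of 27 members were higher (miR-548ao-5p, miR-548ae, miR-548at-3p and miR-548f) and 3 lower (miR-548aj-3p, miR-548n and miR-548as-5p), against 11.5% and 9.31% of all mature miRNAs, and all but miR-548aj-3p had no count in 1 library. By construction, the share of the family was 0.00330% under normoxia and 0.00304% under hypoxia when taken of all counts, and 0.0170% and 0.0147% when taken of mature counts less miR-21-5p. Leaving out the most abundant member of the largest seed group was not run, since miR-548aa is its only member. Depth limits all members, and only the intervals of miR-548aa, miR-548v and miR-548e lie between -0.9 and 0.9.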
